A study of Mus musculus with 12 samples.

Results

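The 42 genes described here carry out mitosis and guard it. They are mitotic cyclins and kinases, spindle checkpoint, kinetochore, spindle and cytokinesis genes, and condensin subunits. They were chosen by gene symbol for what their products do, with earlier results of these data known. Counts over the set are therefore given as description only, not as a test of the set. All 42 were found among the 18546 genes of the table. Mitotic kinesins were kept as a list of their own, except Cenpe, a kinetochore kinesin that is among the 42. RNA was measured in hematopoietic stem cells (HSCs) sorted from the bone marrow of C57BL/6 mice 10 to 12 weeks old. The sort took the SLAM gate, which is cells without lineage markers that carry Sca1, cKit and CD150 and lack CD48. There were 4 genotypes with 3 libraries each: wild type, Tet2+/- (1 Tet2 allele lost), NrasG12D/+ (1 Nras allele coding for the oncogenic G12D protein) and NrasG12D/+;Tet2+/-, called the compound mutant below. The promoter that drives the Nras allele, any Cre line and any pooling of mice are not given in the sources used here, so p-values measure the spread between these libraries.

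In mitosis, CDK1 bound to cyclin B drives the cell into division, and Aurora and Polo-like kinases build the spindle. Kinetochores couple chromosomes to spindle microtubules, and the spindle checkpoint holds back the anaphase-promoting complex (APC/C) until every chromosome is attached. Condensin and topoisomerase II shape the chromosomes, and the midzone machinery then separates the daughter cells. Most of these genes are transcribed in G2 and M phase, under FOXM1 and the MuvB complex. HSCs of adult marrow are mostly quiescent, so the RNA of such genes in them is known to mark the cells that cycle. In a bulk library, a larger share of dividing cells and more RNA per dividing cell cannot be told apart.

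The libraries held 19205045 to 36890942 reads in genes. Wild-type replicate 1 and Nras replicate 2 stood apart, with 3824 and 3268 genes at 0 reads against 1000 to 2621 in the other libraries. Results that moved without them are given both ways. Of the sort's own markers, Kit (cKit) was at 64.7 to 86.0 RPKM (reads per kilobase of gene length, scaled to library size), Slamf1 (CD150) at 3.17 to 11.3, Ly6a (Sca1) at 2.21 to 8.32 and Cd48 at no more than 1.28. Xist and Y-linked genes showed that replicate 1 was male and replicate 2 female in every genotype, and that replicate 3 was female except in Tet2+/-.

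By RPKM, the mitosis genes were present at the level of an ordinary gene of these cells. Their median of mean RPKM was 4.87, against 4.89 over all 15478 tested genes, where testing asked for 1 RPKM or more in 3 or more of the 12 libraries. All 42 passed this minimum. Mki67, which codes for the Ki-67 protein that coats mitotic chromosomes, was far above the rest at a mean of 110 RPKM, followed by Top2a at 32.1 (topoisomerase II alpha, which untangles sister chromatids) and Incenp at 25.5. A further 6 members had a mean of at least 10 RPKM, and 22 lay under 5. At the low end by RPKM, Ube2c was under 1 RPKM in 6 libraries, Ccnb1 in 6, Ect2 in 4, and Aurka and Cdc25c in 1 each. Ranks between genes depend on the gene length that RPKM divides by, which was not examined here. Ect2, for instance, had 270 to 1539 reads, and Ckap2, at 3.61 to 15.1 RPKM, had 188 to 1179.

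The main pattern followed the Nras allele. The 6 libraries that carry NrasG12D, alone or with Tet2+/-, are called carriers here, and the 6 wild-type and Tet2+/- libraries non-carriers. The level of the set in a library, the median over the 42 genes of log2 RPKM relative to each gene's mean over the 12 libraries, was -0.07, -0.48 and -0.18 in wild-type replicates 1 to 3. It was -0.37, -0.29 and -0.38 in Tet2+/-, 0.45, 0.16 and 0.45 in NrasG12D/+, and 0.43, 0.17 and 0.52 in the compound mutant. Every carrier library thus lay above every non-carrier library. The same median over all tested genes stayed within -0.07 to 0.12 in the 12 libraries. Summed over the 42 genes, RPKM came to 261.3 to 363.3 in non-carriers and 463.2 to 539.5 in carriers.

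**Figure D1:**
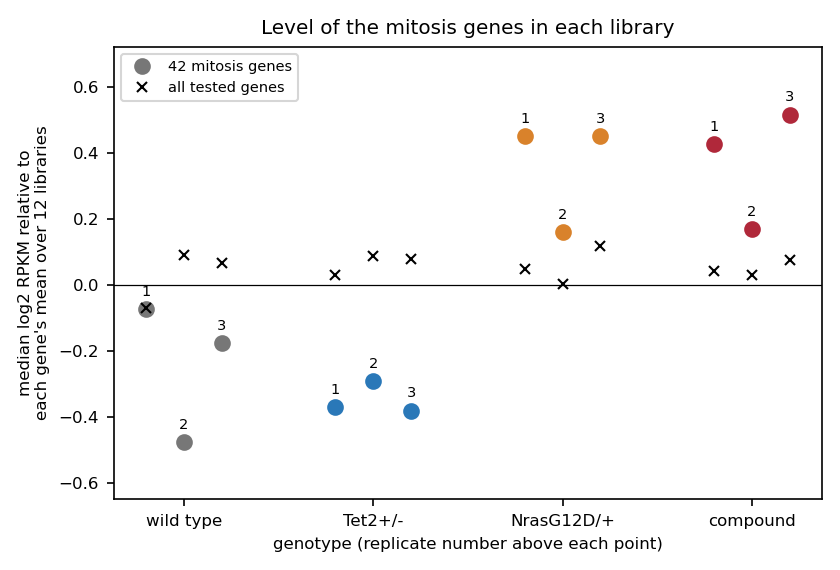
Level of the 42 mitosis genes in each library (coloured points, replicate number above), as the median log2 RPKM relative to each gene's mean over the 12 libraries, with the same median over all tested genes as crosses. The 6 libraries with the Nras allele lie at 0.16 to 0.52 and the 6 without it at -0.48 to -0.07.

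Gene by gene, 41 of the 42 had a positive log2 difference, carriers minus non-carriers, where 48.9% of all tested genes did. The median difference was 0.69 for the 42 genes and -0.01 for all tested genes, and 30 members had a difference over 0.5 (13.3% of tested genes). At an unadjusted p under 0.05, 27 members were higher in carriers and 0 lower, against 3.87% and 3.37% of tested genes. All tests were limma's moderated test on log2 RPKM, two-sided, over the 12 libraries. After Benjamini-Hochberg adjustment over all 15478 genes, 1 member passed at 0.05, Top2a, where 0.0258% of tested genes passed in that direction. For 9 members every carrier library lay above every non-carrier library, which 0.459% of tested genes did. These were Top2a, Mki67, Foxm1, Hmmr, Ncaph, Aspm, Cdk1, Mad2l1 and Smc4. The highest of the 12 libraries was a carrier for 40 members (all but Ttk and Racgap1), and for 52.7% of tested genes. Without wild-type replicate 1 and Nras replicate 2, 41 members were again positive, 31 had an unadjusted p under 0.05 and 17 did not overlap, where 1.18% of tested genes did not. By level of the set these libraries were the highest non-carrier (-0.07) and the lowest carrier (0.16), so leaving them out favours separation.

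**Figure D2:**
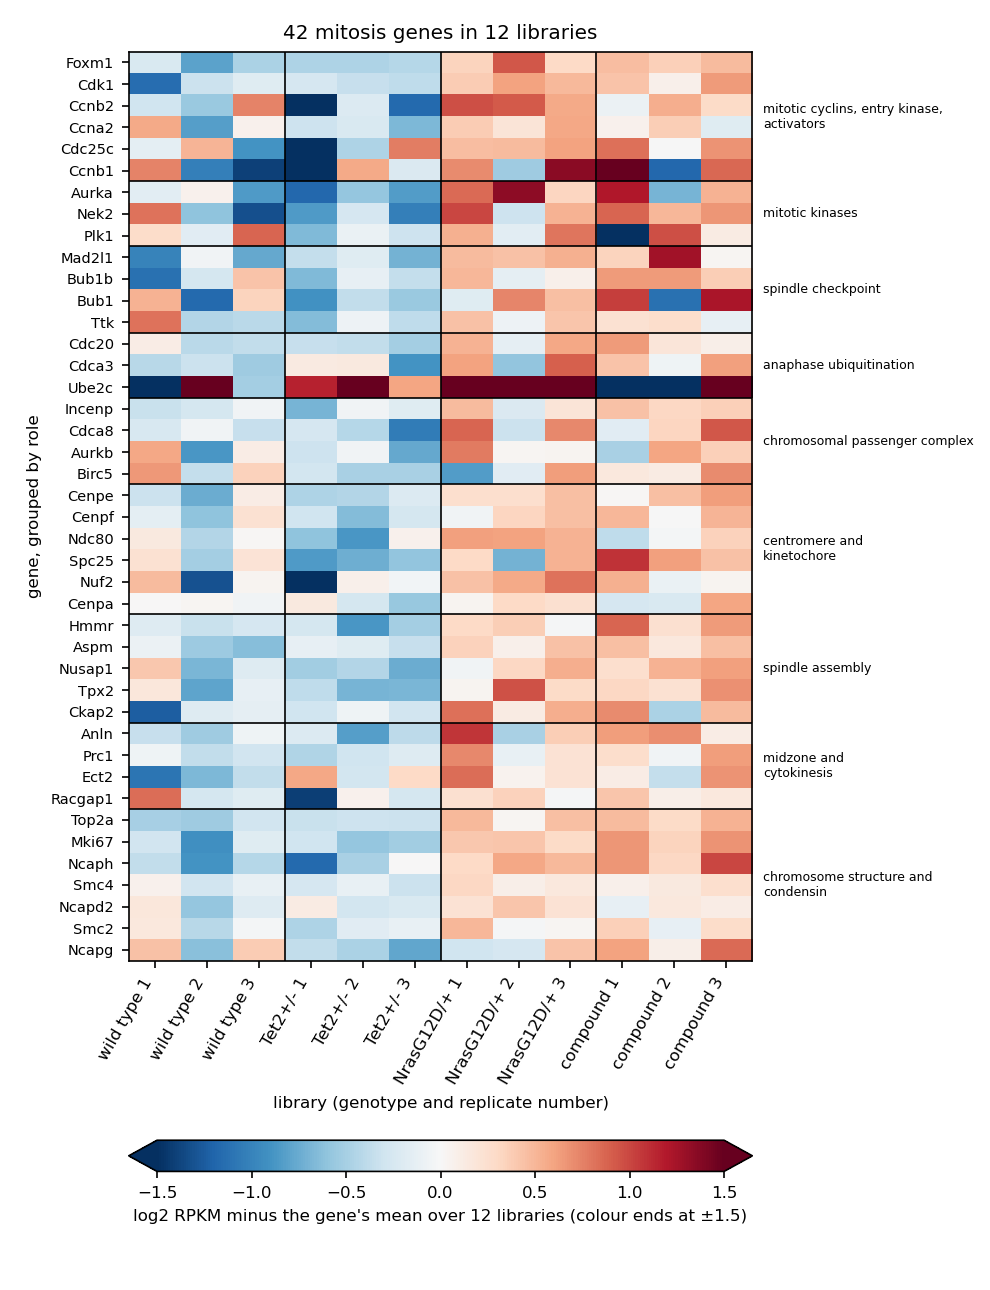
Log2 RPKM of the 42 genes (rows, grouped by role, smallest p first within a role) in the 12 libraries (columns), relative to each gene's mean, with colours ending at 1.5 on either side. The left columns, wild type and Tet2+/-, are mostly blue and the right columns, NrasG12D/+ and compound, mostly red, with Ube2c, Ccnb1 and Cdc25c as the rows with the widest spread between replicates.

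Top2a, at chr11:98992943-99024189 on the minus strand of mm10, was the clearest member. It stood at 21.8, 21.4 and 25.3 RPKM in wild type, 24.6, 24.9 and 24.8 in Tet2+/-, 43.3, 31.6 and 42.05 in NrasG12D/+, and 42.9, 37.8 and 44.4 in the compound mutant. The lowest carrier, Nras replicate 2, was still above the highest non-carrier. The log2 difference was 0.76 ± 0.09 (SE), a fold of 1.69, with a 95% interval of 0.55 to 0.96 and a limma adjusted p of 0.0376. The call is close to the threshold. It was lost when any of 10 of the 12 libraries was left out in turn (adjusted p from 0.0104 to 0.144, log2 0.71 to 0.83), and also with sex as a covariate (0.0602), with quantile normalization (0.0864) and with no variance trend (0.113).

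Mki67 (chr7:135689784-135716361, minus strand) stood at 84.6, 54.9 and 91.6 RPKM in wild type and at 84.2, 69.3 and 72.5 in Tet2+/-. The NrasG12D/+ libraries were at 137, 138 and 127 RPKM and the compound libraries at 164, 131 and 165. No carrier overlapped a non-carrier. The log2 difference was 0.93 ± 0.13 (fold 1.90), and the limma adjusted p of 0.0565 fell just short of the threshold. Over 22 alternatives its adjusted p ranged from 0.00492 to 0.205, and it did not pass in 18 of them. Leaving out wild-type replicate 2, its lowest library, gave an adjusted p of 0.0188.

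Many G2 and M phase genes are known to carry a cell cycle genes homology region (CHR), the element that MuvB binds, and CCAAT boxes, which NF-Y binds, just upstream of their start. Sequences from 250 bases before to 50 after the start were matched in the RefSeq promoter table (GRCm38.p6) for 35 of the 42 members, with 37 promoters. Those of Top2a, Mki67, Hmmr, Cenpe and Ccnb2 are printed because these members had the smallest p among those described library by library that had a promoter with a match. Each runs 5′ to 3′ on the gene's strand, from 250 bases before the start to 20 after it. Capitals mark matches to TTTGAA or TTCGAA (the CHR core) and to CCAAT, on either strand, so that a CCAAT on the other strand reads ATTGG and a TTTGAA reads TTCAAA.
Top2a: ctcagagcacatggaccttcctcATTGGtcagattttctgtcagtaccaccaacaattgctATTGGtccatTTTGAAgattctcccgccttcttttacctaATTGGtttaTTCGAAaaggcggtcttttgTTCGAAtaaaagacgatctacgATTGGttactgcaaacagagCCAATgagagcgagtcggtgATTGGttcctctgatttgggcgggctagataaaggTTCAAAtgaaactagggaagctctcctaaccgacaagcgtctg
Mki67: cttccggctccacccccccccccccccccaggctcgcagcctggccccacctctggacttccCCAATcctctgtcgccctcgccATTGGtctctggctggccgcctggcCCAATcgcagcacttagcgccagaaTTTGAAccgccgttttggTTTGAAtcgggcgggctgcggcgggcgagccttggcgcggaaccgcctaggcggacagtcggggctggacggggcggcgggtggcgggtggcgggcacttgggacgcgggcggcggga
Hmmr: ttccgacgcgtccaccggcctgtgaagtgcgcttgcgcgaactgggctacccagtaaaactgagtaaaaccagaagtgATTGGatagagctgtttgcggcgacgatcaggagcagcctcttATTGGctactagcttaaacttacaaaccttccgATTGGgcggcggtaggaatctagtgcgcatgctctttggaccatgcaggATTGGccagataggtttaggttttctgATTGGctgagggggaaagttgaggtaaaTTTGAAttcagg
Cenpe: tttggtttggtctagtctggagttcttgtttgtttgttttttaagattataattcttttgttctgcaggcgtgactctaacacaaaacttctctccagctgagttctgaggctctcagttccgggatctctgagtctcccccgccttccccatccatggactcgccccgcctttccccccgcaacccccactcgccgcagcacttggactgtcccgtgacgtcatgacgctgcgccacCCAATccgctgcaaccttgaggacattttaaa
Ccnb2: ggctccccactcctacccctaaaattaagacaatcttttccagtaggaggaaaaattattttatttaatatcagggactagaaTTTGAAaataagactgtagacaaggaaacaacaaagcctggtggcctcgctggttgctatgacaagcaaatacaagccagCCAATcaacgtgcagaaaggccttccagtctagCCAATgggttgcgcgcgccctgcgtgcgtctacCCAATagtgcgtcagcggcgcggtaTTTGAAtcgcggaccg
The Top2a promoter (chr11:99024170-99024439, minus strand) held 4 CHR cores and 6 CCAAT boxes. Mki67 (chr7:135716360-135716629, minus) held 2 CHR cores, at positions -116 and -98 from the start, and 3 CCAAT boxes. Hmmr (chr11:40733418-40733687, minus) had 5 CCAAT boxes and 1 CHR core just past the start. Ccnb2 (chr9:70421535-70421804, minus) had 3 CCAAT boxes in a row at positions -87, -54 and -21 and a CHR core right after it, with another core farther up. The Cenpe promoter (chr3:135212313-135212582, plus) differs in that it held 1 CCAAT box and no CHR core.

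Over the 37 member promoters, 29 (78.4%) held a CHR core, against 14.0% of the 11084 promoters of tested genes and 19.2% of all 32851 promoters of the same length. CCAAT was in 30 (81.1%), against 37.9% and 37.4%, and both motifs were in 27 (73.0%), against 5.93% and 7.52%. E2F site forms (TTTGGCGC, TTTCCCGC, TTTCGCGC or TTTGCCGC) were in 3 (8.11%), against 4.10% and 2.26%. None of these motifs contains another, TTCGAA reads the same on both strands, and neighbouring matches may share bases. Of 40 CHR matches, 29 (72.5%) lay from 100 bases before to 50 after the start, a stretch that makes up 50% of the bases searched. Ect2 and Prc1 each have overlapping promoters, and the sites that these share are counted for each promoter. The 27 members with a CHR match had a median log2 difference of 0.63 between carriers and non-carriers, and the 8 without one (Birc5, Ccnb1, Cenpe, Mad2l1, Ncaph, Nek2, Nuf2 and Nusap1) a median of 0.88. These matches describe letters in a window; binding was not measured here.

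The genes of mitotic entry are Foxm1, Cdk1, the cyclins Ccna2, Ccnb1 and Ccnb2, and the phosphatase Cdc25c, which activates CDK1. All 6 had a positive carrier difference (median 0.98), 3 of them with an unadjusted p under 0.05, and 0 passed adjustment. Here and in the roles below, counts stand against 48.9% of all tested genes positive and 3.87% higher at an unadjusted p under 0.05. Foxm1, the transcription factor of this program, stood at 3.54, 2.37 and 2.99 RPKM in wild type, 3.01, 3.02 and 3.08 in Tet2+/-, 5.22, 7.94 and 5.11 in NrasG12D/+ and 5.70, 5.31 and 5.78 in the compound mutant. Its carriers and non-carriers did not overlap, and the log2 difference of 0.95 ± 0.17 had a limma adjusted p of 0.164. Cdk1, the kinase of entry itself, did not overlap either, with 4.96 to 7.33 RPKM in carriers, 2.13 to 4.16 in non-carriers and a log2 difference of 0.88 ± 0.19. Ccnb2, a B-type cyclin and the highest of the role by RPKM, stood at 12.3, 10.3 and 25.4 RPKM in wild type, 4.61, 13.1 and 6.79 in Tet2+/-, 29.8, 28.6 and 22.6 in NrasG12D/+, and 14.3, 22.1 and 18.5 in the compound mutant. Wild-type replicate 3 lay among the carriers, and the log2 difference was 1.07 ± 0.29. Ccna2, Cdc25c and Ccnb1 had intervals that include 0. Ccnb1, the main mitotic cyclin of most cells, was at 0.243 to 2.69 RPKM from 87 to 763 reads, with a log2 difference of 1.0 ± 0.71. Gene length enters RPKM and was not examined here, so the low RPKM of Ccnb1 is not read as low abundance beside other genes.

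Of the 3 mitotic kinases, Aurka and Nek2, which act at centrosomes, had positive differences above 1 on the log2 scale, and Plk1, the Polo-like kinase of spindle assembly and mitotic entry, lay near 0. None passed adjustment. Aurka stood at 1.73, 2.03 and 1.08 RPKM in wild type, 0.854, 1.298 and 1.08 in Tet2+/-, 3.47, 4.90 and 2.42 in NrasG12D/+, and 4.44, 1.197 and 2.78 in the compound mutant. Compound replicate 2 was the carrier that fell among the non-carriers. The log2 difference of Aurka, 1.18 ± 0.37, was the greatest of the 42 point estimates, with a limma adjusted p of 0.481, and that of Nek2 was 1.08 ± 0.37. Plk1 stood at 5.88, 4.32 and 8.91 RPKM in wild type, 3.05, 4.53 and 3.91 in Tet2+/-, 7.01, 4.33 and 8.46 in NrasG12D/+, and 1.08, 9.44 and 5.27 in the compound mutant. The compound mutant thus held both its highest and its lowest library, and the log2 difference was 0.03 ± 0.47, with a sign that changed with the library left out.

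Bub1, Bub1b, Mad2l1 and Ttk (the kinase MPS1) make or activate the spindle checkpoint. All 4 had a positive difference (median 0.71), 2 with an unadjusted p under 0.05. Mad2l1, which codes for the MAD2 protein that inhibits CDC20, stood at 1.83, 3.54 and 2.15 RPKM in wild type, 2.87, 3.25 and 2.24 in Tet2+/-, 5.12, 4.998 and 5.33 in NrasG12D/+, and 4.61, 8.77 and 3.76 in the compound mutant. Its carriers did not overlap its non-carriers, and the log2 difference was 1.03 ± 0.25 (limma adjusted p = 0.333). Bub1b, which codes for BUBR1 of the same inhibitory complex, stood at 4.63, 8.34 and 13.5 RPKM in wild type, 6.33, 9.23 and 7.86 in Tet2+/-, 14.2, 9.15 and 10.5 in NrasG12D/+, and 15.6, 15.7 and 13.01 in the compound mutant. The high wild-type replicate 3 and the low Nras replicate 2 made its groups overlap, with a log2 difference of 0.70 ± 0.24. Ttk had its highest library, 3.75 RPKM, in wild-type replicate 1, and its difference was 0.38 ± 0.28.

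Anaphase ubiquitination is represented by Cdc20, the APC/C activator that the checkpoint restrains, and Ube2c, an APC/C ubiquitin-conjugating enzyme, with Cdca3 listed beside them. Cdc20 stood at 6.65, 4.65 and 4.74 RPKM in wild type, 4.83, 4.75 and 4.31 in Tet2+/-, 8.80, 5.61 and 9.17 in NrasG12D/+, and 9.55, 6.93 and 6.54 in the compound mutant. Wild-type replicate 1 lay above Nras replicate 2 and compound replicate 3, so its groups overlapped, and the log2 difference was 0.63 ± 0.17 (limma adjusted p = 0.398). Cdca3 had the same difference with a wider error, 0.63 ± 0.32. Ube2c was the 1 member with a negative difference, -0.63 ± 1.70, and it rested on few reads: 1, 91 and 18 in wild type, 57, 82 and 30 in Tet2+/-, 275, 96 and 170 in NrasG12D/+, and 0, 0 and 139 in the compound mutant. With 0 reads in 2 libraries its fitted value depends on the prior added to the reads, so it is no measure of size.

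The chromosomal passenger complex is the Aurora B kinase (Aurkb) with Incenp, survivin (Birc5) and borealin (Cdca8), and it corrects wrong attachments. All 4 had a positive difference (median 0.48), 2 with an unadjusted p under 0.05. Incenp, its scaffold, stood at 19.7, 20.7 and 23.9 RPKM in wild type, 15.3, 23.9 and 21.9 in Tet2+/-, 34.5, 21.4 and 28.4 in NrasG12D/+, and 33.6, 30.7 and 31.8 in the compound mutant. Nras replicate 2 alone of the carriers lay within the non-carriers, and the log2 difference was 0.52 ± 0.14 (limma adjusted p = 0.381). Cdca8 had 0.78 ± 0.28, Aurkb 0.44 ± 0.31 and Birc5 0.20 ± 0.27. The lowest library of Birc5, 3.05 RPKM, was Nras replicate 1, a carrier.

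Among the centromere and kinetochore genes, Cenpa is the histone of the centromere, Ndc80, Nuf2 and Spc25 are parts of the complex that grips microtubules, and Cenpe and Cenpf are outer kinetochore proteins. All 6 had a positive difference (median 0.63) and 4 an unadjusted p under 0.05. Cenpe stood at 5.83, 4.37 and 7.86 RPKM in wild type, 5.30, 5.37 and 6.32 in Tet2+/-, 8.71, 8.66 and 9.96 in NrasG12D/+, and 7.38, 10.0 and 11.2 in the compound mutant. Its groups overlapped in 1 pair, wild-type replicate 3 above compound replicate 1, and the log2 difference was 0.68 ± 0.16 (limma adjusted p = 0.325). Ndc80 stood at 12.3, 8.18 and 11.2 RPKM in wild type, 7.28, 6.06 and 11.6 in Tet2+/-, 17.1, 16.9 and 15.9 in NrasG12D/+, and 8.53, 10.8 and 14.1 in the compound mutant. The NrasG12D/+ libraries were thus the highest. Compound replicate 3 also lay above every non-carrier, while the other compound libraries lay within the range of wild type. The carrier difference of Ndc80 was 0.56 ± 0.19. Cenpa, at 0.23 ± 0.19, had the smallest difference of this role.

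The 5 spindle assembly genes, Hmmr, Aspm, Tpx2, Nusap1 and Ckap2, code for proteins that organize spindle microtubules and poles, and each had a positive difference with an unadjusted p under 0.05 (median 0.74). Hmmr stood at 6.94, 6.27 and 6.64 RPKM in wild type, 6.61, 4.33 and 5.56 in Tet2+/-, 9.74, 10.2 and 7.84 in NrasG12D/+, and 14.5, 9.31 and 12.3 in the compound mutant. All 6 carriers were above all 6 non-carriers, with a log2 difference of 0.81 ± 0.15 (limma adjusted p = 0.221). Ckap2, the highest of the role by RPKM, stood at 3.61, 7.45 and 7.78 RPKM in wild type, 6.93, 8.16 and 6.97 in Tet2+/-, 15.1, 9.31 and 12.4 in NrasG12D/+, and 14.0, 6.11 and 11.8 in the compound mutant. Compound replicate 2 was its low carrier, and the log2 difference was 0.74 ± 0.26. Tpx2, an activator of Aurora A, had 0.84 ± 0.22, Nusap1 0.73 ± 0.19 and Aspm, a spindle pole protein, 0.64 ± 0.14.

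Cytokinesis is represented by Prc1, which bundles the midzone, Racgap1 and Ect2, which position and activate RhoA, and Anln (anillin), the scaffold of the contractile ring. All 4 had a positive difference (median 0.53), 2 with an unadjusted p under 0.05. Anln stood at 7.005, 6.17 and 8.496 RPKM in wild type, 7.74, 5.01 and 6.80 in Tet2+/-, 18.7, 6.35 and 11.5 in NrasG12D/+, and 13.7, 14.5 and 9.62 in the compound mutant. Nras replicate 2 again sat with the non-carriers, and the log2 difference was 0.79 ± 0.25 (limma adjusted p = 0.481). Prc1 had 0.56 ± 0.21, Ect2 0.51 ± 0.34 and Racgap1 0.41 ± 0.30.

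In the chromosome group, 6 of 7 members had an unadjusted p under 0.05 and all 7 a positive difference (median 0.48). Top2a was the only member past adjustment, though Mki67 and Ncaph had greater differences. The condensin subunits differed in size. Ncaph, the kleisin of condensin I, had 4.63 to 7.54 RPKM in carriers and 1.68 to 3.79 in non-carriers, a log2 difference of 1.11 ± 0.23 (limma adjusted p = 0.248). Smc4, an ATPase core subunit, also had no overlap, but its difference was 0.34 ± 0.09, with 17.99 to 21.2 RPKM in carriers and 13.6 to 17.8 in non-carriers. Smc4 had the smallest spread between replicates of the 42, a pooled SD of 0.13 on the log2 scale. Its partner Smc2 had 0.34 ± 0.15, Ncapd2 0.33 ± 0.13 and Ncapg 0.47 ± 0.26.

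**Figure D3:**
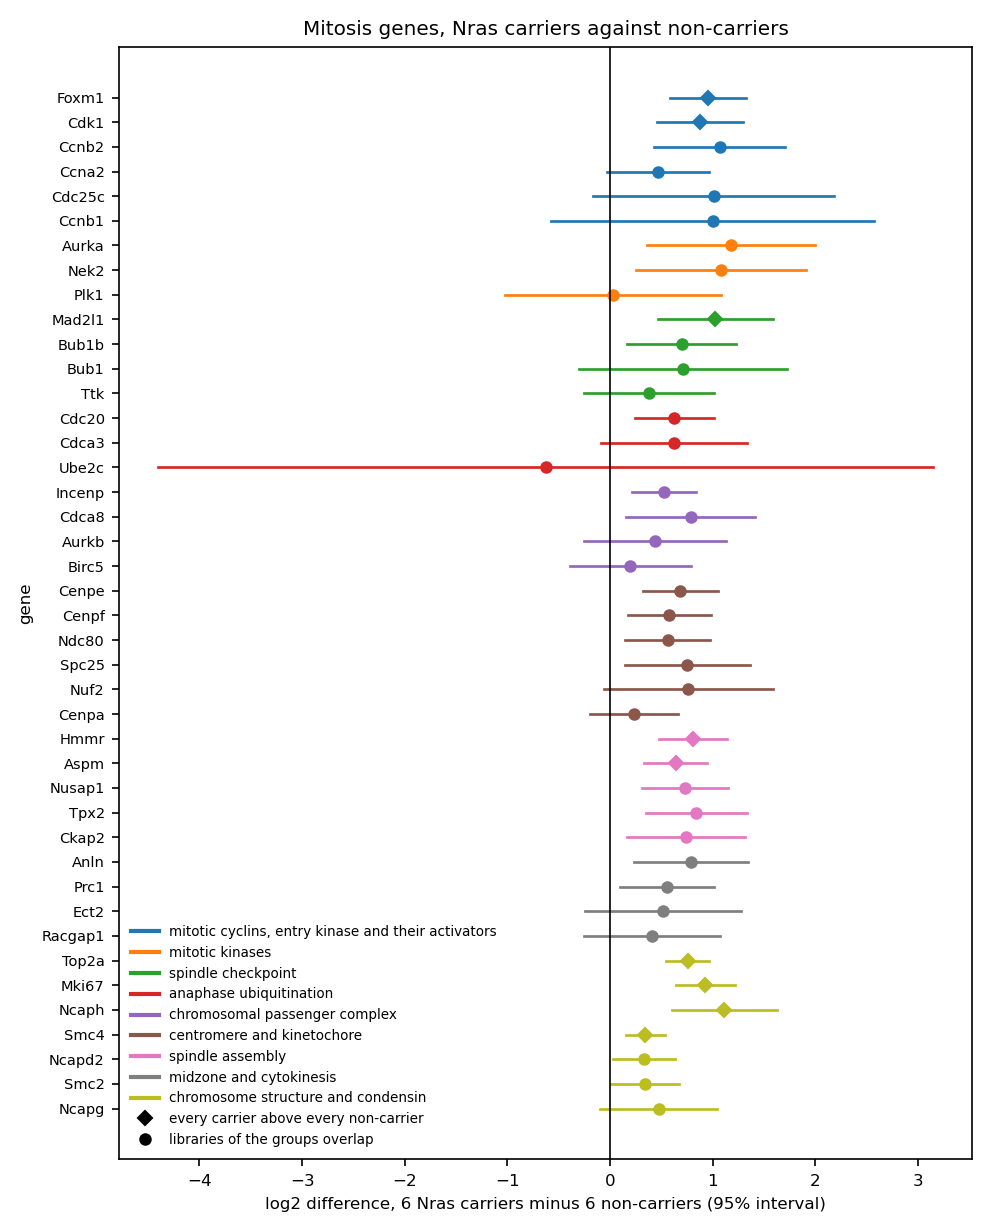
Log2 difference of each of the 42 genes, 6 Nras carriers minus 6 non-carriers, with its 95% interval, coloured by role, diamonds marking genes whose groups do not overlap. All points but that of Ube2c lie to the right of 0, and the narrowest intervals belong to Smc4 and Top2a.

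**Figure D4:**
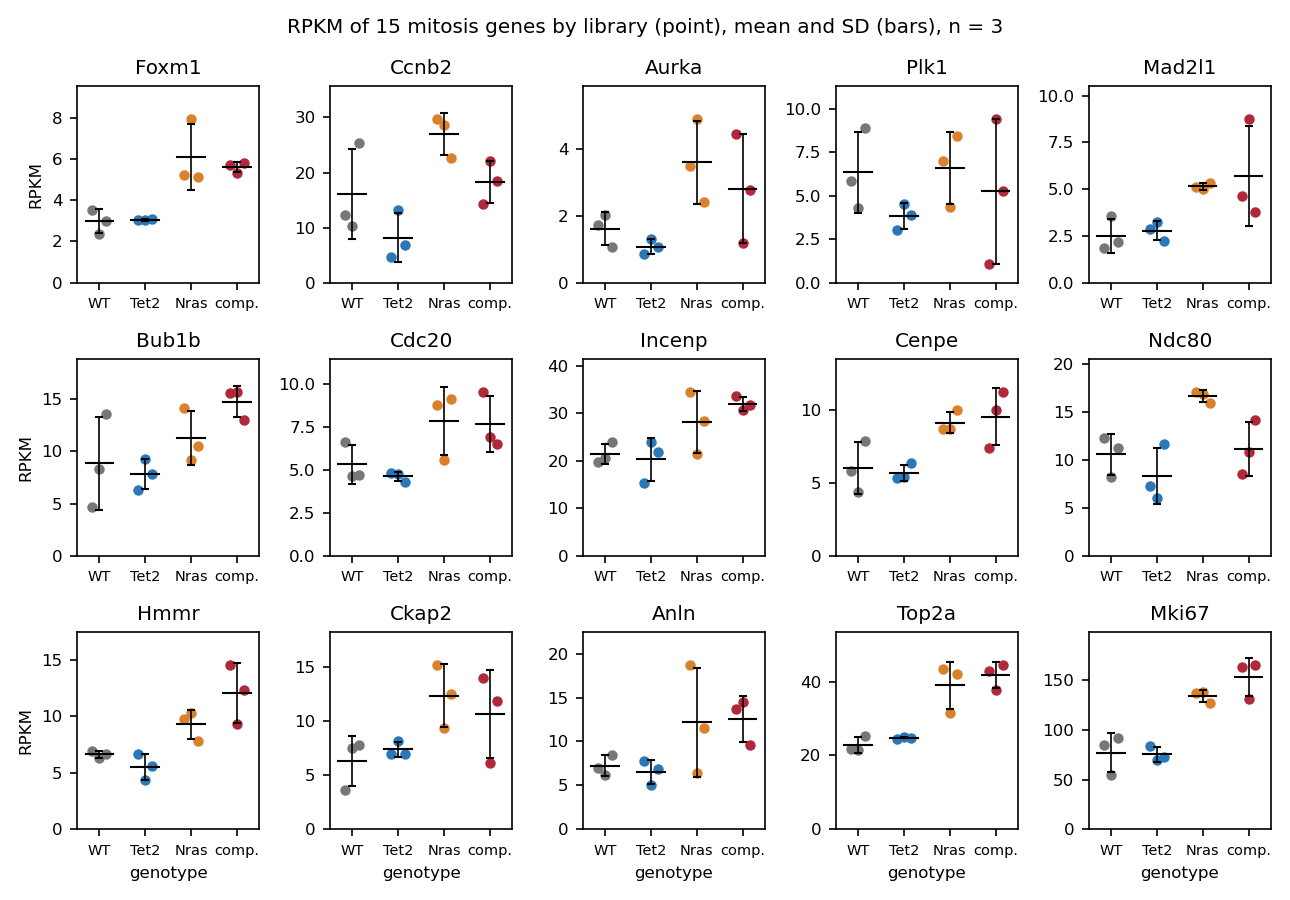
RPKM of the 15 genes described library by library, 1 panel each, with points for libraries and bars for the mean and SD of each genotype (n = 3, "comp." is the compound mutant). Top2a, Mki67, Hmmr, Foxm1 and Mad2l1 separate the genotypes with and without the Nras allele, while the compound libraries of Plk1 range from 1.08 to 9.44.

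The design also allows the Nras allele to be examined with and without the Tet2 allele. NrasG12D/+ against wild type had 40 of 42 members positive (51.3% of tested genes were), a median of 0.63 and 14 members with an unadjusted p under 0.05 (3.19% of tested genes in that direction), and 16 members did not overlap (5.27%). The compound mutant against Tet2+/- had 39 of 42 positive (47.1%), a median of 0.74, 23 with an unadjusted p under 0.05 (2.58%) and 26 without overlap (6.22%). By limma, 0 members passed adjustment in either comparison, where 0.00646% of tested genes did in each, and voom on recovered reads gave 0 as well. The smallest limma adjusted p were 0.296 and 0.331, for Top2a. These comparisons share no library, though they share the fit's estimate of spread. In both, 37 members were positive (88.1%), where 26.6% of all tested genes were, 0 were negative, and 20 exceeded 0.5 (47.6% against 4.94%). Top2a had 0.76 ± 0.13 and 0.75 ± 0.13, and Mki67 0.83 ± 0.18 and 1.02 ± 0.18. The 5 members not positive in both were Birc5 and Ncapg, below 0 without the Tet2 allele, and Ect2, Ube2c and Plk1, below 0 with it, none past adjustment.

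**Figure D5:**
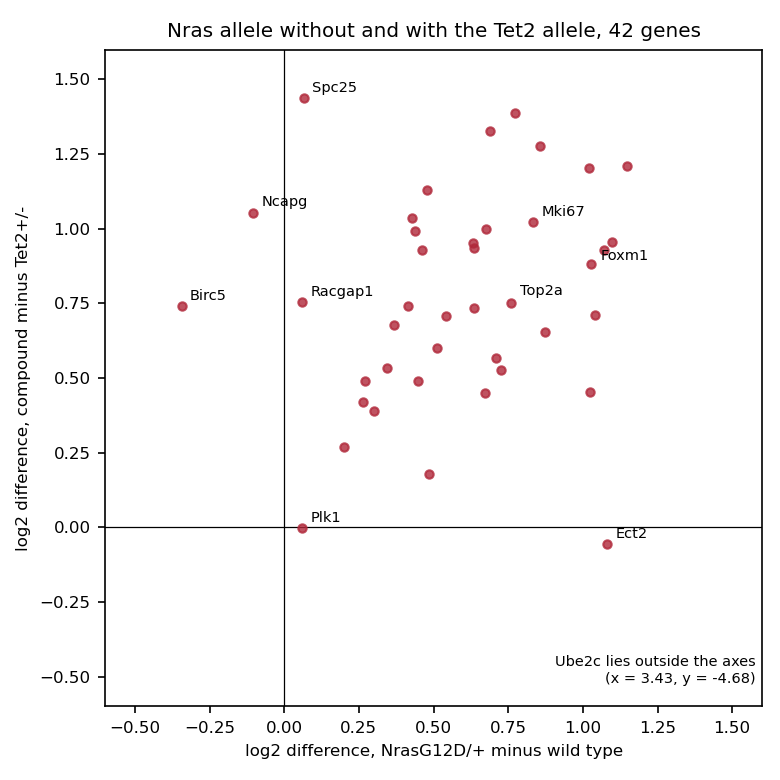
Log2 difference of NrasG12D/+ from wild type (horizontal) against that of the compound mutant from Tet2+/- (vertical), 1 point per gene, with Ube2c outside the axes at 3.43 and -4.68. Of the 42 genes, 37 lie in the upper right, above 0 on both axes, and Spc25, Birc5, Ncapg, Ect2 and Plk1 are named at its edges.

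The compound mutant against wild type, which uses the same wild-type libraries as the NrasG12D/+ comparison, had 40 of 42 positive (51.6% of tested genes), a median of 0.60, 14 with an unadjusted p under 0.05 (3.36%) and 16 without overlap (6.09%). By limma 0 members passed adjustment (0.00646% of tested genes did), and Top2a came nearest with 0.87 ± 0.13 and an adjusted p of 0.18. NrasG12D/+ against Tet2+/-, which shares the carriers of one comparison and the controls of another, had all 42 positive (47.6%) and a median of 0.75. By limma 21 had an unadjusted p under 0.05 (2.63%), 28 did not overlap (5.84%) and 0 passed adjustment (0.00646%).

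Over the Tet2 allele, the differences lay near 0 and were mostly negative. Tet2+/- and compound libraries minus wild-type and NrasG12D/+ libraries gave 14 positive and 28 negative members (52.5% of tested genes were positive), with a median of -0.07 against 0.02 over all tested genes. By limma 0 members passed adjustment (0% of tested genes did), 0 were higher and 2 lower at an unadjusted p under 0.05, against 1.87% and 1.93% of tested genes. The 2 were Ccnb2, at -0.78 ± 0.29, and Ndc80, at -0.49 ± 0.19, both with an adjusted p of 0.963. For Top2a the 95% interval was -0.09 to 0.32 and for Mki67 -0.19 to 0.38. Tet2+/- against wild type alone had 12 members positive and 30 negative, where 54.2% of tested genes were positive, and a median of -0.21. By limma 0 passed adjustment (0.00646% of tested genes did) and 1 (Ccnb2, -0.99 ± 0.41) was lower at an unadjusted p under 0.05 (1.54%). The median was -0.054 without wild-type replicate 1 and -0.036 with library quality weights. Here Spc25 was lower without overlap (1.40 to 1.67 against 1.76 to 2.94 RPKM) and Ect2 higher without overlap (1.01 to 1.83 against 0.574 to 0.947), where 4.01% and 5.24% of tested genes did so.

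The compound mutant and NrasG12D/+ lay close together over the set, with 21 positive and 21 negative members, compound minus NrasG12D/+ (49.1% of tested genes were positive), and a median of -0.0027. By limma 0 passed adjustment (0% of tested genes did), and Ube2c and Ndc80 (-0.60 ± 0.26) were the 2 lower at an unadjusted p under 0.05, where 2.15% of tested genes were. Ccnb2, Ndc80 and Ncapd2 were lower without overlap (4.33% of tested genes). All 6 entry genes had a negative point estimate here, from -0.57 for Ccnb2 to -0.01 for Cdc25c, none of which passed. The 95% intervals of this difference were -0.19 to 0.40 for Top2a, -0.22 to 0.59 for Mki67 and -0.30 to 0.24 for Smc4, members with small standard errors. They were wider for others, at -2.24 to 0.73 for Plk1, -0.18 to 1.54 for Spc25 and -0.25 to 1.37 for Ncapg. The interaction, which asks whether the Nras difference depends on the Tet2 allele, had 28 positive and 14 negative members (46.3% of tested genes were positive), a median of 0.16 and 0 past adjustment by limma (0.0129% of tested genes did). At an unadjusted p under 0.05 it had Spc25 (1.37 ± 0.55) and Ncapg (1.16 ± 0.51) above 0 and Ube2c below (1.43% and 1.95% of tested genes), and the smallest adjusted p was 0.996. The interaction median was 0.028 without wild-type replicate 1, 0.307 without wild-type replicate 2, 0.062 without Nras replicate 2, 0.078 without Tet2+/- replicate 1, 0.097 without compound replicate 3, and -0.054 without both wild-type replicate 1 and Nras replicate 2. Its standard errors were the widest of all comparisons, from 0.17 for Smc4 up.

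Other genes of cell division, listed by function, were read in the same comparison of carriers with non-carriers, and 0 of them passed adjustment. Their counts stand against the 48.9% of all tested genes that were positive and the 3.87% higher and 3.37% lower at an unadjusted p under 0.05. The 12 mitotic kinesins were all positive, with a median of 0.61 and 9 at an unadjusted p under 0.05, among them Kif11 (0.85 ± 0.12, limma adjusted p = 0.063), the motor that pushes spindle poles apart, and the chromosome-bound motors Kif4 (0.67 ± 0.17) and Kif22 (0.87 ± 0.24). Spindle and cytokinesis genes, a list that shares Kif11 and Kifc1 (0.59 ± 0.26) with the kinesins and counts both again, had 27 of 31 tested positive, a median of 0.36 and 9 with an unadjusted p under 0.05, for instance Spag5 (astrin, a spindle protein, 0.95 ± 0.23) and Haus1 (an augmin subunit, 0.82 ± 0.21). The rest of the checkpoint and kinetochore had 28 of 35 positive, a median of 0.27 and 5 with an unadjusted p under 0.05. Casc5 (KNL1, the platform for BUB proteins) stood out in that list with 1.03 ± 0.17 and a limma adjusted p of 0.114, followed by Kntc1 (0.70 ± 0.20) and Spc24 (1.22 ± 0.38), a partner of Spc25.

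Entry control genes had 12 of 13 positive (median 0.47, 5 with an unadjusted p under 0.05), led by Cks2 (a small CDK-binding subunit, 1.43 ± 0.36), Pkmyt1 (a kinase that inhibits CDK1, 0.90 ± 0.23) and Melk (0.94 ± 0.26). Cohesin and separase genes had 15 of 16 positive but a median of 0.14, with 3 at an unadjusted p under 0.05: Cdca5 (sororin, 1.24 ± 0.35), Esco2 (1.05 ± 0.32) and Smc3 (0.26 ± 0.11). The 3 remaining condensin subunits were positive (median 0.29), with 2 at an unadjusted p under 0.05. Subunits and regulators of the APC/C, most of which are present in cells that do not divide too, had 14 of 18 positive, a median of 0.14 and 1 with an unadjusted p under 0.05, Fbxo5 (the APC/C inhibitor EMI1, 0.44 ± 0.18), a share near that of all tested genes (3.87%). Of the genes for MuvB, the related DREAM complex and E2F factors, 15 of 20 were positive (median 0.15). E2f7 (a repressor of the E2F family, 0.83 ± 0.29) and Mybl2 (B-MYB, a partner of MuvB, 0.71 ± 0.31) were higher at an unadjusted p under 0.05 and E2f5 (-1.04 ± 0.45) lower, where 3.87% and 3.37% of tested genes were.

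DNA replication genes of S phase had 38 of 41 positive, a median of 0.29 and 13 with an unadjusted p under 0.05, led by cyclin E2 (Ccne2, 1.16 ± 0.27) and the DNA polymerase subunits Pold1 (0.52 ± 0.14) and Pola1 (0.40 ± 0.12). Of 8 cyclin-dependent kinase inhibitors 5 were tested, 4 of them positive, with a median of 0.19. Cdkn2d (0.56 ± 0.19) was higher and Cdkn1c (p57, -0.80 ± 0.36) lower at an unadjusted p under 0.05, where 3.87% and 3.37% of tested genes were, with limma adjusted p of 0.541 and 0.689. Cdkn2c had 0.45 ± 0.40, Cdkn3 0.19 ± 0.43 and Cdkn1b, which codes for p27, 0.10 ± 0.18.

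Markers of other marrow cells were summed in each library; mature lineage cells are those the lineage-negative sort removes, and progenitors the ones nearest to the gate. The megakaryocyte list, 7 of 8 in the table, was at 41.1 to 62.4 RPKM in carriers and 27.7 to 41.6 in non-carriers. Within it, Pf4 stood at 5.28 to 17.4 RPKM in carriers and up to 2.81 in non-carriers (limma adjusted p = 0.638). Itga2b and Itgb3 had log2 differences, carriers minus non-carriers, of 0.54 and 0.50, Gp9 had 0.11 and Vwf -0.45. Ppbp and Gp1bb, with 1.76 and 1.07, fell to 0.0080 and 0.0035 RPKM in some libraries. The HSC list, 12 of 12, was at 163.4 to 196.6 RPKM in carriers and 186.5 to 225.4 in non-carriers. The multipotent and lymphoid-primed progenitor list, 8 of 10, was at 35.2 to 49.1 and 35.4 to 45.3. Its 3 tested genes Flt3, Cd34 and Notch1 had log2 differences of 0.05, -0.09 and -0.44. Dntt, not tested, was at 10.19 RPKM in compound replicate 3, 1.92 in Nras replicate 3 and 0.836 in compound replicate 1. In every other library Dntt was at 0.0021 RPKM. The granulocyte-monocyte progenitor list, 6 of 8, was at 4.49 to 10.2 and 8.22 to 18.2. Most of this sum was Prtn3, at 4.46 to 12.8 RPKM over the libraries and the only 1 of the 6 tested (limma adjusted p = 0.492). The highest library, Tet2+/- replicate 1, also held Elane at 5.80 RPKM. Erythroid markers, 10 of 12, were at 12.8 to 31.0 and 10.7 to 28.2 RPKM. Carriers and non-carriers overlapped in every list, the lymphoid, mature myeloid and stromal lists included. Some of these had few genes in the table, with 3 of 8 for mature granulocytes, 3 of 8 for monocytes and macrophages and 3 of 9 for the B lineage. No marker of these lists passed adjustment, none that is in the table was at 0 reads in all 12 libraries, and the part of these cells in the mitosis gene differences was not tested.

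Reads of some members could be shared with other genes, since the use of strand in counting is not given in the sources used here. Exons of Ube2c overlap those of Tnnc2 over 22.8% of their length in GENCODE M21, Ncapg those of Lcorl over 13.4%, Cdc25c those of Gm3550 over 12.7%, Ccna2 those of Exosc9 over 12.5% and Prc1 those of Rccd1 over 11.1%. Ccnb1 and Ccnb2 have annotated pseudogenes. The values of these members are uncertain to that extent.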

How the data were processed

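After removal of ribosomal and mitochondrial transcripts, total RNA of 12 libraries (4 genotypes, 3 each) was sequenced with a stranded kit, per the labels' protocols. The authors deposited 1 table of log2 RPKM for 18546 genes, an other unit than counts. The authors' tools are named as CASAVA 1.8.2, TopHat2 and edgeR with build mm10, without role or order, per the submitters' processing notes. The deposited values were whole reads plus a prior (0.25 reads on average) for 100% of genes within 0.001 reads, which gave the depth of 19205045 to 36890942 reads per library; a count of 0 allows up to 3 reads, for counting error only.

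limma 3.58.1 in R 4.3.3 fitted 1 mean per genotype to log2 RPKM with a variance trend (8 residual degrees of freedom) for the 15478 genes that reached 1 RPKM in 3 or more libraries, leaving out 3068. Moderated tests were two-sided, with Benjamini-Hochberg adjustment over all tested genes at 0.05, and the code was tested on simulated data. There were 9 comparisons. Members, lists and comparisons were chosen with earlier results of these data known, so lists are described by counts and medians with no test. Values in every library are given for members past the threshold and, per role, for the member with the smallest p between carriers and non-carriers and the one with the highest mean RPKM. Of each other list, up to 3 genes with the smallest p are named. Cdk1, Smc4, Ncaph and other members given by range, difference or error were named so that all 42 are accounted for. Coordinates and exon overlaps are from GENCODE M21. Libraries were not paired by replicate number in the main fit. Of 18 same-number pairs 2 had a correlation of deviations over 0.1. Sex went largely with replicate number, and such correlations, from means of 3 libraries, cannot exclude matched sets or a shared batch. Alternatives covered the minimum, the pseudocount (0.5), scaling, groups fitted, replicate block, sex, library weights, variance trend, voom on recovered reads and libraries left out.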

Additional observations from a re-analysis of the deposited data

Results flagged for a closer look

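Each gene described library by library was examined for a library far from the other 5 of its set of 6, carriers and non-carriers apart. A gap to the nearest library beyond Dixon's 95% critical value was found in 4 of 30 sets, and chance alone gives about 1 in 20. Plk1, the Polo-like kinase, was at 1.08 RPKM in compound replicate 1, the lowest of its carriers. Foxm1, the G2/M transcription factor, was at 7.94 RPKM in Nras replicate 2, the highest of its carriers. In wild-type replicate 1, Cdc20, the APC/C activator, was the highest of the non-carriers at 6.65 RPKM, and Ckap2, a spindle protein, the lowest at 3.61 RPKM. Nras replicate 2 and wild-type replicate 1 also have more genes at 0 reads than any other library, 3268 and 3824. The part of that in these values was not tested.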

How the results depend on the processing

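Between carriers and non-carriers, 40 to 42 of the 42 genes stayed positive under every alternative run, scalings included. The count past adjustment was 1, and 0 with quantile normalization, with sex as a covariate and with no variance trend. It was 2 with library quality weights (Mki67 and Top2a, adjusted p = 0.0255 and 0.00487), 3 with voom on the recovered reads (these and Aspm, adjusted p = 0.0473) and 0 to 1 with a library left out, where Top2a kept its call only without Nras replicate 2 (adjusted p = 0.0104) or 3 (0.0421). Without wild-type replicate 2, Mki67 passed in its place. With a replicate block the count was 2 (limma adjusted p of 0.0317 for Top2a and 0.0494 for Mki67). The share of all tested genes past adjustment is not given here for the alternatives. Their counts therefore do not set the members against other genes. Correlations were -0.125 to 0.136 for the same number and -0.143 to 0.162 for different ones, which cannot decide whether replicates were matched sets. Top2a lost its call in 13 of 22 alternatives. The compound mutant against wild type had 0 to 1 call with a library left out, Top2a without Nras replicate 2 (0.0392). Medians moved beyond the spread between replicates for Tet2+/- against wild type with quality weights (-0.036), for the interaction without wild-type replicate 1 and Nras replicate 2 (-0.054), and for NrasG12D/+ against wild type without wild-type replicate 2 (0.45, range 0.45 to 0.71 over libraries left out). The carrier median ranged from 0.59 to 0.74. Plk1 between carriers and non-carriers turned to -0.095 with sex as a covariate and ranged from -0.30 to 0.48 with a library left out. With a library left out it ranged from -0.19 to 0.34 in NrasG12D/+ against wild type and from -1.35 to 0.21 in the compound mutant against wild type, where Ndc80 ranged from -0.12 to 0.25. The cause was not tested. Only the 2 groups compared was not run for the comparisons that use all 4 genotypes. Ube2c, Ccnb1 and Cdc25c had the fewest reads, medians of 69, 231 and 248 per library, and the part of depth in their spread was not tested.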
